A study of Rattus norvegicus with 30 samples.

Results

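DNA methylation (DNAm) was examined in the prefrontal cortex (PFC) of 30 rats around 2 sites in genes of neuregulin signalling, Erbb4 and Nrg2. Neuregulins are growth factors with an EGF-like domain that bind ErbB receptors on neighbouring cells, and binding leads the receptors to pair and to phosphorylate each other. Nrg2 encodes neuregulin-2, a ligand of this family, and Erbb4 encodes the receptor tyrosine kinase ErbB4, which in the cortex is found mainly on inhibitory interneurons, where the pathway is known for its part in the assembly and function of synapses. Each locus was taken as the site with 100 kb on either side on Rn6, and its members were the merged peak regions called in 2 or more of the 30 libraries. There were 66 members, 24 at Erbb4 and 42 at Nrg2, of 432103 autosomal regions called in as many libraries. Both sites were chosen by the study from these same animals. The Erbb4 site was selected on a difference of the alcohol-exposed group from both other groups in males, and the Nrg2 site on a difference of both liquid-diet groups from controls in females. The values of the sites in those contrasts are therefore given as a description, with no test.

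The libraries came from methylated DNA immunoprecipitation (meDIP-seq), in which an antibody pulls down methylated fragments, of genomic DNA from Sprague-Dawley rats at postnatal day 22. Dams of the prenatal alcohol exposure (PAE) group had free access to a liquid diet with ethanol at 6.37% by volume, giving 36% of its calories, from gestation day 1 to 21. Dams of the pair-fed (PF) group were given the liquid control diet, whose calories from ethanol are replaced by maltose-dextrin, and their daily ration was matched by body weight to what a PAE dam ate, so that food restriction is part of this group. Control (CON) dams had free access to the pelleted form of the control diet, and the labels give no other treatment. Each group held 10 libraries from 5 dams, with 1 animal labelled female (replicates 1 to 5) and 1 labelled male (replicates 6 to 10) per dam, and the libraries were spread over 5 sequencing chips. Between 11548314 and 16555049 fragments per library remained after filtering. The number of autosomal peaks had a median of 144412.5 in CON, 139890.5 in PF and 134362.5 in PAE libraries, with ranges of 117648 to 208631, 113946 to 184391 and 103898 to 189772 that overlapped over most of their width.

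The sex chromosomes did not follow the labelled sex in 18 of the 30 libraries. In 7 libraries chromosome X held 2.65 to 3.14% of the peaks and chromosome Y 4 to 11 peaks, and of these 2 were labelled female and 5 male. In the other 23 libraries X held 0.774 to 1.15% of the peaks and Y 38 to 87 peaks, and 13 of them were labelled female. The label and the sex chromosomes matched in 3 CON, 3 PF and 6 PAE libraries. Among libraries labelled male they matched in 3 of 5 CON, 2 of 5 PF and 5 of 5 PAE libraries, so these groups also differ in their sex chromosomes. Among libraries labelled female they matched in 0 of 5 CON, 1 of 5 PF and 1 of 5 PAE libraries. Sex is therefore named below as labelled, and values that rest on it are also given for the 12 matching libraries where these allow it.

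The value of a library in a region, its normalized height, was the highest pileup (fragments stacked at one position) per 1000000 filtered fragments. Libraries without a called peak, and heights under 0.438, were set to 0.438, the highest of the lowest called heights of the libraries, so that a height at this floor means only that no peak above it was listed. Log2 heights were compared with limma over 352026 regions called in at least 3 libraries, of which 48 were members, 15 at Erbb4 and 33 at Nrg2. The remaining 18 members were called in exactly 2 libraries, 9 at each locus, and were not tested. Apart from the sites, 16 of the tested members reached this limit only through 1 group, having fewer than 3 called libraries outside it, and a difference of that group at such a member follows in part from the limit. Just outside the limit lay 8 regions at Erbb4 and 22 at Nrg2 that were called in 1 library, and just inside the limit for testing lay 2 and 5 members called in 3 libraries.

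The Erbb4 site region, at chr9:75405263-75405664 (402 bp), lies in an intron of the gene in the annotation of the study. It had a called peak in 13 libraries, 7 of 10 CON, 5 of 10 PF and 1 of 10 PAE. The summits of the 13 peaks lay within 43 bp of each other, and the peaks were 243 to 345 bp long, with 10 to 17 stacked fragments and a fold enrichment over the local background of 5.49 to 8.33 (median 7.0). Their heights ran from 0.803 to 1.28 (median 1.02), so that no called library lay close to the floor.

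Across all libraries the height at the Erbb4 site was lowest in PAE, at 0.510 ± 0.227 (SD, n = 10, lowest 0.438, median 0.438, highest 1.16), against 0.725 ± 0.318 in PF (lowest 0.438, median 0.657, highest 1.24) and 0.851 ± 0.309 in CON (lowest 0.438, median 0.974, highest 1.28). The 3 groups overlapped, because each held libraries at the floor and a library above 1.1. The fitted log2 difference was -0.78 (SE 0.25) between PAE and CON, -0.54 (SE 0.25) between PAE and PF and -0.24 (SE 0.26) between PF and CON. The difference between PF and CON ranged from -0.41 to -0.063 with single libraries left out. As the DNA came from whole tissue, fewer cells carrying methylation and less methylation per cell cannot be told apart here or at any other region.

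Among libraries labelled male, all 5 CON libraries had a peak at the Erbb4 site, with heights of 0.803, 1.05, 1.00, 1.28 and 1.10. In PF, 3 of 5 had a peak, at 1.02, 1.03 and 1.24, and in PAE none of 5 did. The CON and PAE libraries thus did not overlap in the labelled sex on which the site was selected, with fitted log2 differences of -1.26 (SE 0.34) between PAE and CON and -0.89 (SE 0.38) between PAE and PF. Of the 12 libraries whose sex chromosomes matched the label, 3 of 3 CON, 2 of 3 PF and 0 of 6 PAE libraries had a peak, and in a fit of these libraries the log2 difference of PAE from CON was -1.12 (SE 0.30). The 3 CON, 2 of the 3 PF and 5 of the 6 PAE libraries among them are labelled male, so that this fit, with 4 residual degrees of freedom, mostly reuses libraries on which the site was selected.

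The labelled sex that the choice did not use gave a test of the Erbb4 site, limited by the layout of the chips. Among libraries labelled female, CON replicates 1 and 4 were on a chip without PAE or PF. CON replicates 3 and 5 shared a chip with PAE replicate 4, and CON replicate 2 shared one with PAE replicates 2 and 3 and PF replicate 4. With the chip term, CON entered the limma comparison only through those shared chips. Peaks were called in 2 of 5 CON libraries labelled female, at 1.01 and 0.944, in 2 of 5 PF libraries, at 0.897 and 0.875, and in 1 of 5 PAE libraries, at 1.16. The group ranges overlapped fully, and the highest value was that of a PAE library, replicate 2. All 5 libraries with a peak were at odds with their labelled sex. The log2 difference was -0.26 (SE 0.45, limma adjusted p = 1.0) between PAE and CON and -0.24 (SE 0.37, limma adjusted p = 0.989) between PAE and PF, and Fisher's exact test on the presence of a peak (two-sided) gave p = 1.0 for each. The SE exceeded the difference in both comparisons, and neither passed the FDR. Under the alternatives of the processing the differences ranged from -0.78 to -0.16 and from -0.95 to -0.13, and with single libraries left out from -0.49 to 0 and from -0.38 to -0.074.

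The site was also read within litters and within sequencing chips. Both hold the libraries labelled male on which the site was selected, so their values are a description and no test. A peak was called in at least 1 animal of every CON litter (both animals in 2 litters, 1 animal in 3), in 4 of 5 PF litters (both animals in 1) and in 1 of 5 PAE litters. The count for CON follows from its libraries labelled male, which all had a peak. On the 4 chips that held both CON and PAE libraries, the mean height was 0.644, 1.10, 0.803 and 1.15 in CON, against 0.438, 0.438, 0.438 and 0.678 in PAE, lower in PAE on each. On all of these chips but the last, the only CON peaks were in libraries labelled male. On the 3 chips that held both PF and PAE libraries, PF had means of 0.584, 0.787 and 0.875, again above PAE on each, while 1 chip held no PAE library and 1 no PF library.

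The members next to the Erbb4 site on either side were each called in only 4 libraries. The nearest member below it, 5972 bp away at chr9:75398561-75399291, was called in 1 CON, 0 PF and 3 PAE libraries, at 0.527 in CON and 0.573, 0.749 and 0.905 in PAE. It is named as the nearest member and for its p, the smallest of the locus for PAE against both other groups, but it reached the limit for testing only through PAE. Its log2 differences of 0.26 (SE 0.11) from PF and 0.18 (SE 0.11) from CON are therefore given with no test. They ranged from 0.10 to 0.31 and from 0.089 to 0.23 with single libraries left out, and from 0.21 to 0.94 and from 0.052 to 0.59 under the alternatives. The nearest member above the site, 10666 bp away at chr9:75416330-75417064, was called in 0 CON, 2 PF and 2 PAE libraries, none of them higher than 0.679. This member too reached the limit for testing only through 1 group, either PF or PAE. Its order of groups follows in part from the limit and is not compared with that of the site. At both neighbours most libraries of every group were at the floor, and the few called heights lay below the lowest called height of the site except for 1 PAE library.

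The member called in the most libraries of the Erbb4 locus was chr9:75438230-75439518 (1289 bp), with a peak in all 10 CON, all 10 PF and 8 PAE libraries. Its height was 1.76 ± 0.466 in CON (lowest 1.20, median 1.94, highest 2.39), 1.84 ± 0.719 in PF (lowest 0.950, median 1.62, highest 3.27) and 1.47 ± 0.797 in PAE (lowest 0.438, median 1.42, highest 2.79). The ranges overlapped over most of their width, and the log2 difference of -0.41 (SE 0.30, p = 0.182, adjusted p = 0.752) between PAE and CON was not called. Its summits lay within 66 bp of each other in the 28 called libraries, so that a peak at this position was listed in nearly every animal.

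A further member at chr9:75456977-75457394 was called in 5 libraries of each group, with called heights of 0.673 to 1.58. Its medians were 0.757 in CON, 0.620 in PF and 0.556 in PAE, and all 3 groups ran from the floor to above 1.1, with a log2 difference of -0.23 (SE 0.29, p = 0.440, adjusted p = 0.870) between PAE and CON. It shared its number of called libraries with chr9:75485203-75485730 (4 CON, 6 PF and 5 PAE) and was taken for its higher median height, as the rule for naming set beforehand. The other had medians of 0.438, 0.612 and 0.525 in CON, PF and PAE and a log2 difference of -0.09 (SE 0.29, p = 0.760, adjusted p = 0.957) between PAE and CON. The smallest p of the locus between PF and CON belonged to chr9:75396884-75397325, called in 3 CON, 5 PF and 2 PAE libraries with medians of 0.438, 0.495 and 0.438, where the log2 difference was 0.30 (SE 0.16, p = 0.0758, adjusted p = 0.776), from 0.16 to 0.38 with single libraries left out and from 0.16 to 0.52 under the alternatives. It lay 7938 bp from the site, and 4 of its 5 PF peaks were in libraries labelled female.

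At the ligand gene, the Nrg2 site region, at chr18:28855652-28856037 (386 bp), is likewise annotated by the study as intronic. It had a called peak in 14 libraries, 2 of 10 CON, 6 of 10 PF and 6 of 10 PAE. The summits spread over 141 bp, and the peaks were lower than those of the Erbb4 site, with 8 to 21 stacked fragments, a fold enrichment of 3.80 to 7.81 (median 4.61) and heights of 0.517 to 1.45 (median 0.705). Height was 0.491 ± 0.140 in CON (lowest 0.438, median 0.438, highest 0.884), 0.729 ± 0.341 in PF (lowest 0.438, median 0.649, highest 1.45) and 0.587 ± 0.183 in PAE (lowest 0.438, median 0.575, highest 1.03). All 3 groups held libraries at the floor and overlapped up to the highest CON library. The fitted log2 differences were 0.45 (SE 0.23) between PF and CON, 0.22 (SE 0.23) between PAE and CON and -0.23 (SE 0.23) between PAE and PF, with the PAE group between the other 2 and within about 1 SE of each. This order did not hold under every alternative, as PAE against PF was 0.011 with uncalled libraries at 0 and a pseudocount of 0.1 and PAE against CON was -0.20 without the libraries at odds with their label. With single libraries left out, the 3 differences ranged from 0.25 to 0.59, from 0.08 to 0.37 and from -0.32 to -0.12.

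Among libraries labelled female, none of 5 CON libraries had a peak at the Nrg2 site. In PF, 4 of 5 had a peak, at 1.45, 0.852, 0.731 and 0.566, and in PAE 4 of 5 did, at 0.679, 0.613, 1.03 and 0.538. A single library of each liquid-diet group remained at the floor with the CON libraries, and the fitted log2 differences in the labelled sex on which the site was selected were 0.81 (SE 0.46) between PF and CON and 0.64 (SE 0.38) between PAE and CON. Both values turned on single libraries, falling to 0.32 and 0.08 without PAE replicate 4 and rising to 1.48 and 1.23 without CON replicate 2. Among libraries labelled female, CON and PF shared only the chip of CON replicate 2 and PF replicate 4, both at the floor. CON and PAE shared that chip and the chip of PAE replicate 4. Without PAE replicate 4 the values rest on CON replicate 2 alone for CON. Without CON replicate 2 they are linked to CON through PAE replicate 4 alone.

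In libraries labelled male, which the choice of the Nrg2 site did not use, 2 of 5 libraries of each group had a peak. The heights were 0.884 and 0.517 in CON, 0.846 and 1.10 in PF and 0.611 and 0.644 in PAE, in ranges that overlapped. The log2 difference was 0.18 (SE 0.37, limma adjusted p = 0.989) between PF and CON and -0.08 (SE 0.35, limma adjusted p = 1.00) between PAE and CON, and Fisher's exact test on the presence of a peak (two-sided) gave p = 1.0 for each. Under the alternatives these differences ranged from -0.040 to 0.44 and from -0.26 to -0.043. Of the 12 libraries whose sex chromosomes matched the label, 1 of 3 CON, 3 of 3 PF and 3 of 6 PAE libraries had a peak, and in the fit of these libraries the log2 difference from CON was -0.20 (SE 0.36) in PAE and 0.10 (SE 0.50) in PF. As none of these CON libraries is labelled female, the fit holds little of the labelled sex on which the site was selected.

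A peak at the Nrg2 site was called in at least 1 animal of every PF and every PAE litter, in both animals of 1 litter in each group, and in 2 of 5 CON litters. Litters and chips both hold the libraries labelled female on which the site was selected, so their values are a description and no test. The order of the groups was not the same on every chip. On the chip with 3 CON and 2 PAE libraries the mean height was 0.438 and 0.821, and on the chip with 1 CON, 4 PF and 2 PAE libraries it was 0.517, 0.543 and 0.661. On the chip with 1 CON, 3 PF and 3 PAE libraries it was 0.884, 1.05 and 0.472, with PAE lowest. On the other 2 chips no CON library had a peak, and the mean height was 0.768 in PF on the chip without PAE libraries, and 0.438 in PF and 0.496 in PAE on the remaining chip.

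The nearest member below the Nrg2 site, 1971 bp away at chr18:28853379-28853681, was called in only 2 libraries, 1 CON (0.788) and 1 PAE (1.23), and was not tested. The nearest above it, 5466 bp away at chr18:28861503-28862474, was called in more libraries than any other member of the locus, 10 CON, 10 PF and 7 PAE. Its height was 0.740 ± 0.141 in CON (lowest 0.526, median 0.750, highest 1.01), 0.824 ± 0.274 in PF (lowest 0.585, median 0.705, highest 1.43) and 0.579 ± 0.129 in PAE (lowest 0.438, median 0.598, highest 0.837). The only 3 libraries without a peak were PAE libraries, and of the other 7 PAE libraries 1 (replicate 10, 0.502) lay below every CON and PF library and 6 lay among them. This was the smallest p of the locus between PAE and PF, with a log2 difference of -0.50 (SE 0.19, p = 0.0121, adjusted p = 0.988), beside -0.43 (SE 0.19, p = 0.0303, adjusted p = 0.663) between PAE and CON, and neither passed the FDR. The difference from PF ranged from -1.12 to -0.30 under the alternatives.

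The member at chr18:28897670-28898652 had the smallest p of the locus for both exposed groups against CON. Its height was 1.04 ± 0.460 in CON (lowest 0.438, median 1.02, highest 1.94), 0.769 ± 0.173 in PF (lowest 0.438, median 0.805, highest 1.03) and 0.799 ± 0.406 in PAE (lowest 0.438, median 0.688, highest 1.53), with a peak in 9, 9 and 6 libraries. The 5 highest CON libraries lay above the highest PF library, while PAE libraries reached into the upper part of the CON range. The log2 difference was -0.52 (SE 0.23, p = 0.0281, adjusted p = 0.663) between PAE and CON and -0.48 (SE 0.23, p = 0.0487, adjusted p = 0.773) between PF and CON, comparisons that share the CON libraries. Under the alternatives they ranged from -1.31 to -0.37 and from -0.79 to -0.14, the last with peaks covering at least 50% of the region. The chip term of the model had an unadjusted p of 0.00137 (adjusted p = 0.111) at this region, and 0 members passed the FDR for the chip, where 113 of all tested regions did.

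The member at chr18:28816776-28817424, called in 25 libraries, showed similar levels in the 3 groups. Its median height was 0.550 in CON (lowest 0.438, highest 0.858), 0.573 in PF (lowest 0.438, highest 0.925) and 0.673 in PAE (lowest 0.438, highest 1.17), with a peak in 8, 9 and 8 libraries. The log2 difference was 0.18 (SE 0.22, p = 0.425, adjusted p = 0.865) between PAE and CON, within the spread of the libraries.

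The 2 site regions are left out of the counts of tested members in the group comparisons that follow. Counts over all 66 members, and those per library, include them. None of the 46 other tested members passed an FDR of 0.05 with limma in any of the 3 comparisons of all libraries, where 0.000284% of all tested regions passed between PAE and CON, 0.0% between PAE and PF and 0.0% between PF and CON. At an unadjusted p under 0.05, 4 of these 46 members (8.70%) differed between PAE and CON, against 7.37% of all tested regions, 2 (4.35%) between PAE and PF, against 4.46%, and 1 (2.17%) between PF and CON, against 6.46%. Of these members, 1, 1 and 0 reached the limit for testing only through 1 group. The shares among members were thus near or below those of the whole series. Fisher's exact test of called peaks gave 0 of the 46 members at an unadjusted p under 0.05 for PAE against CON, PAE against PF and PF against CON, beside 0.864%, 0.747% and 0.786% of all tested regions. With limma, 81.8% of the regions at this p between PAE and CON were lower in PAE, which is 6.03% of all tested regions. All 4 members that differed in this comparison were lower too (8.70% of the 46). They lay at the Nrg2 locus, and apart from the pair described above they were chr18:28785142-28785660 (called in 4 CON, 4 PF and 0 PAE libraries, log2 difference -0.29, p = 0.0326) and chr18:28953409-28953802 (called in 3 CON, 1 PF and 0 PAE libraries, log2 difference -0.22), both named after their values were seen. The latter reached the limit for testing only through CON, so that its difference is given with no test.

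The lean toward lower heights in PAE was shared by the genome and depended on scaling. Of the 25957 regions with an unadjusted p under 0.05 between PAE and CON, 21234 were lower in PAE, against 11492 of 20157 after quantile normalization and 14299 of 21640 with median ratio scaling. Between PAE and PF the regions lower in PAE were 10386 of 15684, against 8012 of 15978 after quantile normalization and 8815 of 16049 with median ratio scaling, and between PF and CON those lower in PF were 15471 of 22734, against 10011 of 17458 after quantile normalization. Either of these scalings left 1 of the 46 members at this p between PAE and CON. Of the 46 members, 31 were lower and 15 higher in PAE than in CON, with a median log2 difference of -0.10 beside -0.05 over all tested regions, of which 63.3% were lower (counting those with a difference other than 0). Between PAE and PF 25 were lower and 21 higher, with a median of -0.01 beside -0.02 (56.4% of all regions lower), and between PF and CON 28 were lower and 18 higher, with a median of -0.06 beside -0.03 (57.6% lower). Among the 46 are the 16 members that reached the limit for testing only through 1 group, whose directions follow in part from the limit. The split between PAE and PF turned to 21 lower and 25 higher after quantile normalization, 22 and 24 with median ratio scaling, 20 and 26 with each library's own floor and 20 and 26 with the pseudocount, and was 24 and 22 without the chip term. That between PAE and CON was 26 and 20 after quantile normalization (median -0.036, 52.3% of all regions lower). It was 29 and 17 with median ratio scaling (median -0.041, 55.8%) and 33 and 13 with each library's own floor (median -0.13, 66.2%).

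At the receptor locus, of the 14 tested members other than the site, 8 were lower and 6 higher in PAE than in CON, with log2 differences from -0.41 to 0.21 and a median of -0.04. Members that reached the limit for testing only through 1 group are among them, so this split follows in part from the limit. At the ligand locus 23 of 32 were lower and 9 higher in PAE than in CON, from -0.52 to 0.26 with a median of -0.11, and 22 were lower and 10 higher in PF than in CON, with a median of -0.06, beside the 63.3% and 57.6% over all regions. Among these 32 are members that reached the limit for testing only through 1 group. For most of them this group was CON, or either CON or PAE. Lower heights than in CON at such members follow in part from the limit. Over all libraries the Erbb4 site lay below the lowest other member of its locus for PAE against CON (-0.78 beside -0.41) and for PAE against PF (-0.54 beside -0.47), in contrasts that hold the libraries it was selected on. The Nrg2 site lay inside the range of the other members of its locus for PAE against CON (0.22 beside a highest value of 0.26) and above it for PF against CON (0.45 beside 0.22). In libraries labelled female, on which it was selected, it lay above the highest other member for PAE against CON (0.64 beside 0.58) and below it for PF against CON (0.81 beside 0.87).

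Within labelled sexes 0 of the 46 members passed the FDR with limma in each comparison. In libraries labelled male, 3, 2 and 1 of the 46 members had an unadjusted p under 0.05 for PAE against CON, PAE against PF and PF against CON, beside 4.6%, 3.54% and 3.58% of all tested regions, of which 0.0%, 0.000284% and 0.000284% passed the FDR. In libraries labelled female the counts were 2, 4 and 3 members, beside 6.87%, 4.17% and 5.9% of all regions, and no region passed the FDR (0.0% in each comparison). As given for the Erbb4 site, CON replicates 1 and 4 shared no chip with another group there. With the chip term, CON thus entered these comparisons only through CON replicates 2, 3 and 5. By Fisher's exact test 1, 1 and 1 members reached this p in libraries labelled male, beside 0.823%, 0.904% and 0.701% of all regions, and 1, 2 and 0 in libraries labelled female, beside 0.766%, 0.605% and 0.835%. For the difference of the group effect between the labelled sexes, the counts were 2, 3 and 4 members, beside 4.87%, 3.19% and 4.77% of all regions, and again no region passed the FDR (0.0% in each). Of the members counted with limma, those that reached the limit for testing only through 1 group were 1, 0 and 0 in libraries labelled male, 0, 1 and 0 in libraries labelled female and 0, 1 and 2 for the difference between labelled sexes, and their p is no test of a group difference. Without PAE replicate 4, 2 Nrg2 members (chr18:28785142-28785660 and chr18:28880100-28880861) passed the FDR in libraries labelled female for PAE against CON and for PF against CON, but 9861 and 9271 regions of the genome then passed as well. In that fit CON shared a chip with another group only through CON replicate 2. These calls rest on that library alone for CON and are no test of a group difference. Without the libraries at odds with their label, 1 Nrg2 member (chr18:28810378-28811106) passed in libraries labelled male for PAE against PF and PF against CON, beside 10544 and 10225 regions, in a fit left with 10 libraries, but it reached the limit for testing only through PF. In that fit PF shared a chip with another group only through PF replicate 9, so this call is no test either.

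No member was called in all 30 libraries, where 2.76% of the autosomal regions called in at least 2 libraries were, and neither a member nor any of these regions (0.0%) was called in every library of a group and in no library of another. Of the 66 members, 11 (16.7%) had no called peak in CON, 15 (22.7%) none in PF and 12 (18.2%) none in PAE, beside 12.5%, 15.0% and 16.4% of these regions. Members of the receptor locus were called in a median of 4 libraries and those of the ligand locus in 7, beside 6 over all these regions. At Erbb4, 9 of 24 members (37.5%) were called in exactly 2 libraries, beside 21.4% at Nrg2 and 18.5% over all regions. The window around the Erbb4 site held 12.0 members per 100 kb and that around the Nrg2 site 21.0, beside 16.5 over the autosomes. Median length was 410 bp at Erbb4, 566.5 bp at Nrg2 and 499 bp over all regions, and the median called height was 0.664, 0.731 and 0.744.

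Counted per library, the receptor locus carried the same mean number of called members in the 3 groups, 5.1 ± 1.79 in CON (lowest 2, median 5.5, highest 7), 5.1 ± 1.60 in PF (lowest 3, median 4.5, highest 8) and 5.1 ± 2.73 in PAE (lowest 2, median 4, highest 10). This is 21.25% of its members, where 33.1% ± 5.64, 31.6% ± 4.10 and 29.8% ± 5.70 of all regions were called per library. The count includes the site, called in 7 CON, 5 PF and 1 PAE libraries, so the means are equal only with the site counted. The ligand locus had 14.1 ± 3.67 called members in CON (lowest 9, median 14, highest 21), 11.9 ± 2.51 in PF (lowest 7, median 11.5, highest 16) and 12.0 ± 4.97 in PAE (lowest 7, median 11, highest 24), differences smaller than the SD within each group. These counts include the site, called in 2 CON, 6 PF and 6 PAE libraries. Without it the means of PF and PAE lie further below that of CON.

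Covered length and called height were read beside these counts, again with the site regions included. At Erbb4 the called peaks covered 1674 ± 569 bp in CON, 1873 ± 763 bp in PF and 1925 ± 1198 bp in PAE, with summed heights of 5.18 ± 2.02, 5.03 ± 1.86 and 4.54 ± 2.88 and mean called heights of 1.02 ± 0.193, 0.979 ± 0.118 and 0.857 ± 0.157. The order of the covered lengths depended on the summary, as the medians were 1799.5 bp in CON, 1623.5 bp in PF and 1289.5 bp in PAE, and all these group means lay within 1 SD of CON. At Nrg2 the peaks covered 5687 ± 2028 bp in CON, 4917 ± 971 bp in PF and 4692 ± 2111 bp in PAE, with summed heights of 11.4 ± 4.15, 9.22 ± 3.01 and 9.0 ± 4.32 and mean called heights of 0.791 ± 0.108, 0.764 ± 0.0966 and 0.745 ± 0.0880. Over all regions the mean called height was 1.08 ± 0.0988 in CON, 1.03 ± 0.0722 in PF and 1.02 ± 0.0672 in PAE, in the same order.

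Regions elsewhere in the genome were ranked by the correlation of their log2 height with that of each site over the 30 libraries, among 261977 regions called in at least 5 libraries. The regions most like the Erbb4 site were chr1:244666000-244666570 (Pearson r = 0.835, Spearman rho = 0.799, called in 12 of the 13 libraries of the site), chr3:154771926-154772717 (r = 0.833, rho = 0.831, called in 12) and chr4:98970450-98971837 (r = 0.830, rho = 0.816, called in 11). The regions most like the Nrg2 site were chr2:234714384-234714978 (r = 0.816, rho = 0.701, called in 5 of its 14 libraries), chr9:18921317-18921896 (r = 0.800, rho = 0.685, called in 6) and chr9:63667193-63667481 (r = 0.774, rho = 0.745, called in 7). These are the highest of many correlations across libraries that share chips, litters and depth, with many libraries at the floor, and none of the 6 regions lay at a position listed by the study as a DMR.

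Of 22 other genes of the pathway, fixed as a list of ligands, receptors, cleaving enzymes and partners, only Nrg1, the gene of another neuregulin ligand, had a position on Rn6 in the sources used here. Its site, at chr16:63520214-63520720 (507 bp, intronic), was also chosen by the study from these animals, as a difference of PAE and PF from CON in both sexes, and is described without a test. It was called in 2 CON, 3 PF and 4 PAE libraries, with heights of 0.504 and 0.717 in CON, 0.877, 0.925 and 0.805 in PF and 0.930, 0.687, 0.875 and 1.02 in PAE. The called libraries of PF and PAE lay above those of CON except for 1 PAE library, while most libraries of every group were at the floor, and the fitted log2 differences were 0.34 (SE 0.22) between PF and CON and 0.46 (SE 0.21) between PAE and CON, or from 0.20 to 0.88 and from 0.30 to 1.28 under the alternatives. In RefSeq's annotation of GRCr8, another assembly of the rat genome, the protein-coding neighbours of Erbb4 are Cps1 and Pced1bl1 and those of Nrg2 are Psd2 and Pura.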

How the data were processed

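The authors aligned meDIP-seq reads to Rn6 with BWA, filtered them with SAMtools and called peaks per animal, with no control library, using MACS2 (version 2.1.4 in the file headers) and a q-value of 0.05. The deposited signal is the pileup of fragments at each peak's summit, not scaled for depth. The ratio deposited by the authors is the fold enrichment over the local background, and the deposited −log10 q-value set a stricter threshold of 0.01. Subpeaks were combined at their highest pileup, and autosomal peaks overlapping by at least 1 bp were merged. Read counts per region, which the study tested, were not used here, so the pileup per 1000000 filtered fragments took their place. Peaks hold no coverage below the calling threshold, so a library without a peak is known only to lie below it.

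Group came from the labels. Models of log2 height used limma (3.58.1, under R 4.3.3) with variances shrunk toward a trend, and had group, labelled sex and sequencing chip as terms, group and chip within a labelled sex, and an added interaction for the difference between labelled sexes. Benjamini-Hochberg adjustment covered the 352026 tested regions together, and unadjusted p-values come from the same fits. Fitted values were written with 8 significant digits, and differences that were only floating-point noise were set to 0 and counted as neither higher nor lower. The fit was run on simulated heights with independent noise in each library and no chip or litter effects. Changes were set only in regions called in nearly all libraries. This is no check for members at the floor in many libraries, the sites among them. Tables were made in Python (3.11.15) using pandas 2.3.3, scipy 1.17.1 and numpy 2.4.6. Regions named are the sites, the nearest member on either side, the 2 members per locus called in the most libraries, the member with the smallest unadjusted p per comparison and locus, any member under the FDR or called in all of a group and none of another, and the 3 regions most correlated with each site. The members and lists were chosen with earlier results of these data known. Pairs of libraries correlated at 0.459 to 0.615 over the tested regions, so none was a copy of another. Replicates of the 2 labelled sexes share a dam, and the estimated correlation within litters was -0.0242. The alternatives were other scalings, floors, peak thresholds, overlaps and library minimums, the chip and sex terms, a litter block, libraries left out, and a Fisher's exact test on the presence of peaks. Rn6 sequence and gene annotation were not used here.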

Additional observations from a re-analysis of the deposited data

Results flagged for a closer look

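A sample standing far from the rest of its group was sought in 45 groups of 10 libraries, and chance would mark about 5% of them. It occurred 13 times, in part because a lone called library stands apart from 9 at the floor by construction. This was so at the Erbb4 site in PAE (replicate 2, height 1.16), at chr9:75398561-75399291 in CON (replicate 7, 0.527) and at chr18:28853379-28853681 in CON (replicate 8, 0.788) and PAE (replicate 2, 1.23).

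In groups with 2 or more called libraries, the library standing apart was PF replicate 4 (0.636) and PAE replicate 1 (0.679) at chr9:75416330-75417064, CON replicate 2 (0.504) at chr9:75396884-75397325, CON replicate 6 (0.884) and PAE replicate 4 (1.03) at the Nrg2 site, and CON replicate 8 (0.717) at the Nrg1 site. At the Nrg2 locus as a whole, PAE replicate 2 stood apart with 24 called members, against 16 in the next PAE library, and a summed height of 19.9, against 12.5, and PF replicate 4 had a summed height of 16.4, against 11.0. Both libraries held the most autosomal peaks of their group, 189772 and 184391, and the part of this in their values was not tested. No member had a group effect that differed between the labelled sexes at the FDR.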

How the results depend on the processing

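Normalized heights rest on 10 to 17 stacked fragments at the Erbb4 site and 8 to 21 at the Nrg2 site, and the peaks list nothing under the calling threshold. In the 3 comparisons of all libraries, 0 members passed the FDR under 13 alternatives and with each of the 30 libraries left out in turn. The log2 differences of the Erbb4 site kept their direction under each alternative that gave a value, apart from a value of 0 with 1 library left out (below). With litter as a replicate block, the Erbb4 site differed by -0.78 between PAE and CON and the Nrg2 site by 0.45 between PF and CON, 1 region in the genome passed for PAE against CON, and no call changed. Leaving out the libraries at odds with their label was not possible in libraries labelled female or for the difference between labelled sexes, and the block and Fisher's test were not run where the fit does not allow them. The cause of the changes below was not tested, except that fits with fewer libraries, or with the chip removed beforehand, have other residual degrees of freedom (3 in place of 8 without the libraries at odds with their label in those labelled male, 12 in place of 8 with the chip removed).

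Members called at the FDR changed from 0 in the following cases. With the chip effect removed before the fit, 3 were called for PAE against CON and 11 for PF against CON in libraries labelled female, where 29362 and 63283 of all regions were called. Without the libraries at odds with their label, 1 was called in libraries labelled male for PAE against PF and 1 for PF against CON, beside 10544 and 10225 regions. With single libraries left out, the number ranged from 0 to 2 in libraries labelled female for PAE against CON and for PF against CON, the 2 without PAE replicate 4. As given above, the fit without PAE replicate 4 rests on CON replicate 2 alone for CON. That without the libraries at odds with their label, in those labelled male, rests on PF replicate 9 alone for PF. Their calls are no test of a group difference.

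With uncalled libraries at 0 and a pseudocount of 0.1, the log2 difference of the Erbb4 site was -2.32 (PAE against CON) and -1.61 (PAE against PF) over all libraries and -3.62 and -2.42 in those labelled male. That of the Nrg2 site was 0.97 (PAE against CON) and 0.95 (PF against CON) over all libraries, 2.20 and 1.88 in those labelled female, and reversed to -0.040 for PF against CON in those labelled male. Over all libraries it reversed to 0.011 for PAE against PF with the pseudocount, and to -0.20 for PAE against CON without the libraries at odds with their label. With single libraries left out, the Nrg2 site ranged in libraries labelled female from 0.081 to 1.23 for PAE against CON and from 0.32 to 1.48 for PF against CON, and in libraries labelled male from -0.30 to 0.17 (turning positive without CON replicate 6, PAE replicate 6 or PAE replicate 10) and from -0.056 to 0.37 (turning negative without CON replicate 8 or PF replicate 10). The Erbb4 site in libraries labelled female ranged from -0.49 to 0 for PAE against CON, and it was 0 without CON replicate 2. In that fit CON was linked to PAE only by the chip of CON replicates 3 and 5 and PAE replicate 4, all at the floor.

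Over the whole genome, the 1 region called between PAE and CON in all libraries became 0 without the chip term, with the pseudocount, with median ratio scaling, with quantile normalization, with peaks covering at least 50% of the region, without the libraries at odds with their label and with Fisher's test. Without these libraries 147 regions passed between PAE and PF, and with the chip effect removed beforehand 25 passed for PAE against CON and 27 for PF against CON. In libraries labelled male, the 0, 1 and 1 regions (PAE against CON, PAE against PF, PF against CON) became 2, 5 and 7 without the chip term and 253, 730 and 458 with its effect removed beforehand. The pseudocount gave 13 and 0 in the first 2, either scaling gave 2 in the last, and Fisher's test 0 in the last 2. In libraries labelled female, the 0 regions in each became 2, 2 and 2 without the chip term, and 181 for PAE against PF with its effect removed. For PAE against CON they became 5 with the pseudocount, 1 with each library's own floor and 5 with regions called in 2 or more libraries. For PAE against PF they became 1 with either scaling, 1 with the 50% overlap and 1 with regions called in 2 or more libraries, and for PF against CON 2 with the pseudocount. For the difference between labelled sexes, 1 region passed for PAE against CON without the chip term and 1 with its effect removed, as did 4 for PF against CON. With single libraries left out, the ranges were 0 to 1 (PAE against CON, all libraries), 0 to 4, 0 to 2 and 0 to 4 in those labelled male, 0 to 9861, 0 to 287 and 0 to 9271 in those labelled female, and 0 to 1 for the difference in PAE against CON between labelled sexes. The libraries behind the counts above 100 labelled female were CON replicates 2, 3 and 5, PAE replicate 4 and PF replicate 4.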

Other observations

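Beyond the prenatal groups, the members were read for a difference between sequencing chips in the model of all libraries. Of the 48 tested members, 5 (10.4%) had an unadjusted p under 0.05 for the chip and 0 passed the FDR, where 47929 and 113 of all 352026 tested regions did. The site regions were not among them, with adjusted p-values for the chip of 0.556 at Erbb4 and 0.659 at Nrg2.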
